A study of Mus musculus with 9 samples.

Results

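The mRNA levels of 41 autophagy genes were measured in the brains of young and old mice. The genes were taken as a given list of initiation, conjugation and receptor genes of autophagy, by symbol, and all 41 were found among the 49315 genes of the count table and among the 18492 genes with enough reads to be tested. The samples are whole brains of wild-type male C57BL/6J mice, 5 young animals of 3 months and 4 old animals of 33 months, with 1 mouse per library and with no transgene and no treatment named in the labels. PolyA-selected RNA was sequenced to ask whether mRNA levels account for the protein and ubiquitylation differences that the study measured in aging brain, and only the RNA is described here. The mice came from a supplier or from internal breeding, and the labels do not say which animal came from where.

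Autophagy delivers cytoplasmic material to the lysosome inside a membrane sac, the autophagosome. A kinase complex around Ulk1 starts the process, a lipid kinase complex around Pik3c3 and Becn1 marks the membrane, Atg9a and Atg2 proteins supply lipid, and a conjugation machinery attaches small ubiquitin-like Atg8 proteins (the LC3 and GABARAP families) to the growing membrane. Cargo receptors such as Sqstm1, also called p62, bind ubiquitylated cargo on one side and Atg8 proteins on the other, and Pink1 and the Bnip3 proteins mark damaged or surplus mitochondria. Neurons do not divide and depend on this route to clear aggregates and organelles. Much of its control is exerted on proteins, through phosphorylation, lipidation and degradation, which mRNA levels do not report.

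The libraries held 14229259 to 21150439 counts. Young and old animals are compared below as log2 fold changes, old minus young, with edgeR's quasi-likelihood test and p values adjusted over all genes tested, and a gene is called at an adjusted p under 0.05. Levels within a gene are given as CPM, the counts of a gene scaled to a common library size, and levels between genes as TPM, which also take gene length into account. Autophagy genes were well measured: the lowest count of any of them in any library was 91, for Atg4a, and their median log2 CPM was 6.15 against 3.95 for all genes tested. The young library of replicate 4 had more microglial RNA than the other young libraries. Its deviation from the mean of the other young libraries had a median of 0.006 log2 units over the 41 genes (range -0.15 for Atg10 to 0.14 for Uvrag). Over the 9 libraries, each set against the others of its age, this median ran from -0.025 to 0.035.

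Most autophagy mRNAs differed little between young and old brain. Of the 41 genes, Pink1 rose and Map1lc3a fell, and 39 were not called. The 2 calls are 4.88% of the genes, beside 11.0% of all genes tested in either direction, 6.09% higher and 4.89% lower. No autophagy gene passed the additional threshold of an absolute log2 fold change over 0.58, which 2.50% of all genes passed together with the adjusted p. The count was also 0 with DESeq2 and limma-voom, and the largest absolute log2 fold change among the 41 genes was 0.29.

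The median log2 fold change was 0.011 over the autophagy genes and -9.2e-05 over all genes tested. The median absolute log2 fold change was 0.047, against 0.11 over all genes, and the median standard error was 0.044 against 0.085. The smaller differences thus came with smaller errors, and with levels above the median of all genes. Direction was mixed, with 23 genes at a positive and 18 at a negative log2 fold change. Among the 39 genes that were not called, log2 fold changes ran from -0.13 for Atg5 to 0.12 for Wdr45, and 23 of them lay within 1 standard error of 0. The 95% intervals of all 39 stayed between -0.29 and 0.31. Only Atg9a and Uvrag had an unadjusted p under 0.05 without being called. Mice of the same age were close to each other, with a median coefficient of variation of 3.61% in young and 3.94% in old animals.

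**Figure D1:**
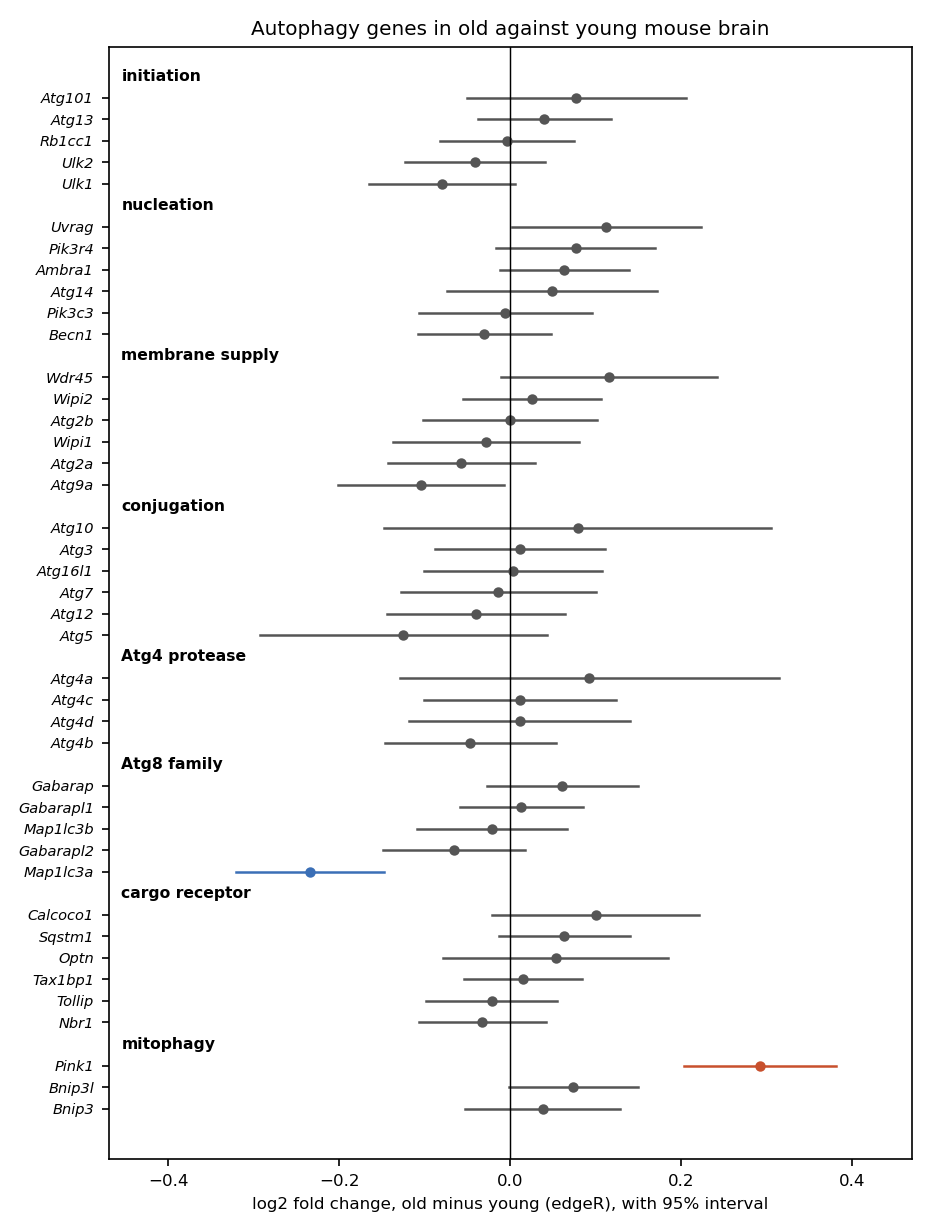
The log2 fold change of each of the 41 autophagy genes, old minus young, is plotted by role group with its 95% interval from the edgeR fit (5 young and 4 old mice). Pink1 at 0.29 and Map1lc3a at -0.23 are coloured as called, and the intervals of the other 39 genes in grey stay between -0.29 and 0.31.

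The ages did not overlap in CPM for 4 genes, which is 9.76% of the autophagy genes beside 12.6% of all genes tested. These were Pink1, Map1lc3a, Ambra1 and Pik3r4, the regulatory subunit of the lipid kinase complex. Pik3r4 lay between 38.5 and 41.5 CPM in young and between 41.9 and 44.0 CPM in old mice, a gap smaller than either range, and was not called (log2 fold change 0.08 ± 0.044 SE, adjusted p = 0.299 by edgeR).

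**Figure D2:**
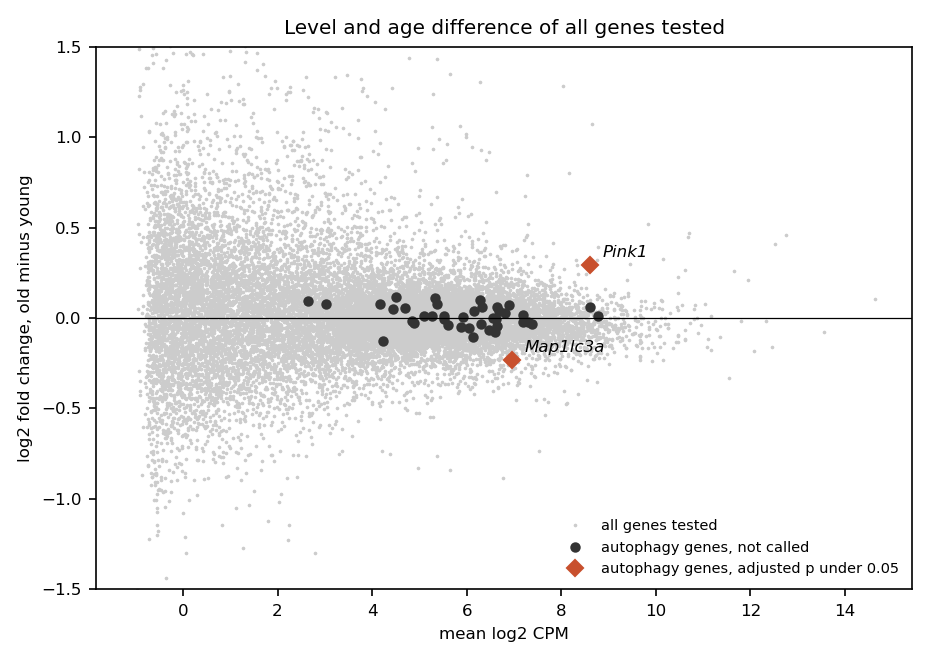
Each point is a gene, with its mean level (log2 CPM) on the horizontal and its log2 fold change, old minus young, on the vertical axis. The 39 uncalled autophagy genes (black) lie close to 0 among all 18492 genes tested (grey), with Pink1 above and Map1lc3a below (orange); 85 genes lie outside the plotted range of 1.5.

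Pink1, a kinase that accumulates on damaged mitochondria and phosphorylates ubiquitin there, had the largest rise of the 41 genes. In young brains it stood at 349, 367, 357, 337 and 358 CPM, and in old brains at 462, 429.6, 442 and 398 CPM. Every old mouse was above every young mouse. The log2 fold change was 0.29 ± 0.042 (SE, n = 5 young and 4 old; edgeR, adjusted p = 0.000319), a rise of 22.5% with a 95% interval of 0.20 to 0.38 on the log2 scale. Pink1 was the second most abundant autophagy mRNA by TPM (mean 359.9 over the 9 mice). The gene (ENSMUSG00000028756) lies on chromosome 4 of GRCm38 from 138313409 to 138326307 on the minus strand, and 6.7% of its exon bases are shared with the annotated small genes Gm27646 and Mir7019 on the same strand.

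The mitophagy receptors Bnip3 and Bnip3l did not pass the test. Bnip3l, an outer membrane protein that recruits Atg8 proteins to mitochondria, differed by 0.07 ± 0.036 log2 units (SE; edgeR, adjusted p = 0.208). The log2 fold change of Bnip3, its hypoxia-inducible relative, lay within 1 standard error of 0. Of the exon bases of Bnip3, 22.3% are shared with Gm45507 on the opposite strand. At mean levels of 77.9 TPM for Bnip3 and 77.0 TPM for Bnip3l, the pair was expressed at about the same level.

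Map1lc3a encodes LC3A, an Atg8 protein that is attached to phosphatidylethanolamine on the autophagosome membrane. It was measured at 125, 138, 139.8, 126 and 134 CPM in young brains and at 111, 111, 116 and 111 CPM in old brains. All old mice lay below all young mice, and the old values were close together. The log2 fold change was -0.23 ± 0.041 (SE, n = 5 young and 4 old; edgeR, adjusted p = 0.00148), a level that fell by 15.0%, with a 95% interval of -0.32 to -0.15 on the log2 scale. Map1lc3a (ENSMUSG00000027602) lies on chromosome 2 of GRCm38 from 155276297 to 155278073 on the plus strand, shares no exon base with another gene, and was the fourth most abundant autophagy mRNA (mean 262 TPM).

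**Figure D3:**
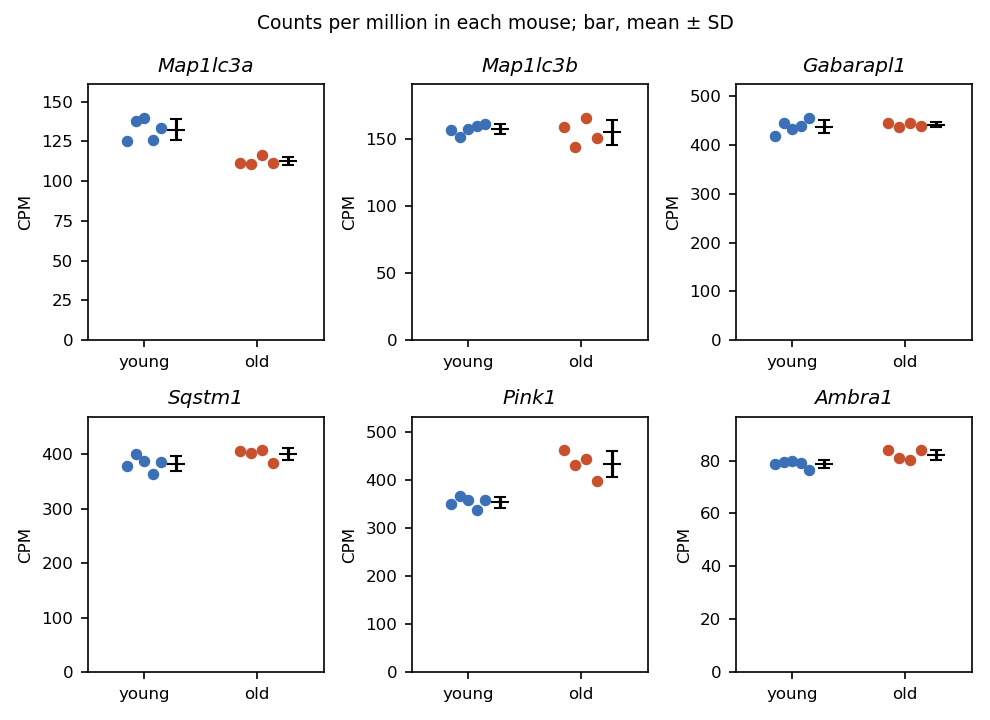
CPM in each mouse for 6 genes, young in blue and old in orange, with the mean and SD of each group as a black bar on an axis that starts at 0. Map1lc3a is lower and Pink1 and Ambra1 are higher in every old mouse than in any young mouse, while the ages overlap for Map1lc3b, Gabarapl1 and Sqstm1.

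The other Atg8 genes were not called. Map1lc3b, which encodes the LC3B protein widely used as an autophagosome marker, was at 157, 152, 158, 160.1 and 161 CPM in young and at 159, 144, 166 and 151 CPM in old mice. The old range enclosed the young one, and the log2 fold change was -0.02 ± 0.041 (SE; adjusted p = 0.794, edgeR). Gabarapl1, the most abundant autophagy mRNA of this tissue with a mean of 542 TPM, was at 418, 445, 432, 439 and 455 CPM in young mice. In old mice Gabarapl1 was at 445, 436, 445 and 439.6 CPM, inside the young range, with a log2 fold change of 0.01 ± 0.034 (SE; adjusted p = 0.854, edgeR). Of the exon bases of Gabarapl1, 28.3% are shared with 1700101I11Rik on the opposite strand. For Gabarap the difference was 0.06 ± 0.042 log2 units (SE; edgeR, adjusted p = 0.390), and for Gabarapl2 it was -0.07 ± 0.040 (SE; edgeR, adjusted p = 0.317).

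The Atg8 family held 39.1% of the summed TPM of the 41 genes. Its makeup can be described within a library by the share of each gene in the family's TPM. Map1lc3a made up 25.3% ± 0.79 (SD, n = 5) in young and 22.2% ± 0.20 (SD, n = 4) in old brains, with ranges of 24.5 to 26.3% and 22.0 to 22.5%. Gabarapl1 took 49.1% ± 0.88 in young and 51.2% ± 0.56 in old brains (SD). Gabarap took 12.03% ± 0.19 and 13.0% ± 0.41 (SD), while Gabarapl2, at 8.84% and 8.73%, and Map1lc3b, at 4.73% and 4.82%, differed between the ages by less than the SD of either age. Since the shares add up to the whole, a lower share of Map1lc3a raises the others, and they were not tested. The order of the genes also rests on the gene lengths behind TPM, which are not given. By counts Map1lc3b stood above Map1lc3a, at a mean of 157.5 against 132.4 CPM in young brains.

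Ratios between paralogues do not depend on how libraries are scaled, and 10 pairs were compared by a two-sided exact permutation test over the mice, with p values adjusted over the 10 pairs. With 126 possible splits the smallest p is 0.00794, so a single pair could not go below an adjusted p of 0.0794. No pair passed. The largest difference was that of Map1lc3b over Map1lc3a, whose log2 count ratio was 0.25 ± 0.090 (SD) in young and 0.46 ± 0.065 (SD) in old mice. Every old mouse had a higher ratio than every young mouse, and the difference was 0.21 ± 0.052 (SE; exact permutation p = 0.0159, adjusted p = 0.159). Gabarapl2 over Gabarap differed by -0.13 ± 0.044 (SE; exact permutation p = 0.0317, adjusted p = 0.159), with overlapping mice. The other 8 pairs (Ulk2 over Ulk1, Atg2b over Atg2a, Wipi2 over Wipi1, Atg4a, Atg4c and Atg4d each over Atg4b, Gabarapl1 over Gabarap and Bnip3l over Bnip3) had exact permutation p values of 0.135 or more.

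**Figure D4:**
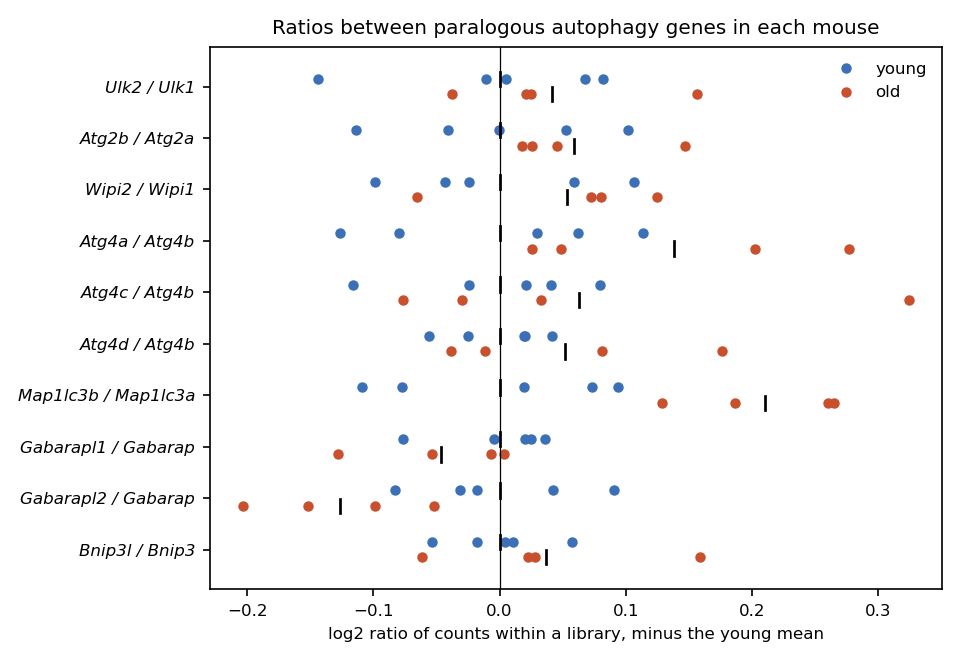
The log2 ratio of the counts of paralogous genes in each mouse, minus the mean of the young mice, is shown for 10 pairs, young in blue and old in orange, with group means as black ticks. The old mice stand clear of the young only for Map1lc3b over Map1lc3a, by 0.21 in the mean (exact permutation p = 0.0159, adjusted p = 0.159).

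The 6 cargo receptors were not called, with log2 fold changes from -0.03 to 0.10. Sqstm1, the receptor for ubiquitylated aggregates, was at 379, 401, 387, 364 and 386 CPM in young and at 407, 402, 408 and 385 CPM in old brains. In 3 of the 4 old mice the value was just above the highest young mouse, and 1 lay inside the young range. The difference for Sqstm1 was 0.06 ± 0.036 log2 units (SE; edgeR, adjusted p = 0.295), with a 95% interval of -0.01 to 0.14. By TPM it was the third most abundant autophagy mRNA (mean 289.6 TPM). Of its exon bases, 17.3% are shared with Mrnip on the opposite strand, whose reads cannot be told apart if strand was not used in counting. Calcoco1, a receptor linked to turnover of the endoplasmic reticulum, had a log2 fold change of 0.10 ± 0.057 (SE; adjusted p = 0.297, edgeR), which was 0.032 without old replicate 1. Nbr1, which cooperates with Sqstm1, and the receptors Optn, Tax1bp1 and Tollip lay within 1 standard error of 0, at mean levels of 60.8, 17.0, 36.3 and 71.8 TPM.

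None of the 5 initiation genes was called, and their log2 fold changes ran from -0.08 to 0.08. Atg13, the adaptor between the kinase and its scaffold and the most abundant gene of this group, was at 101, 99.7, 100.5, 101 and 104 CPM in young and at 104, 102, 110.1 and 101 CPM in old mice. The ages overlapped (log2 fold change 0.04 ± 0.037 SE, adjusted p = 0.547, edgeR). Log2 fold changes of the kinases were -0.08 ± 0.041 for Ulk1 (adjusted p = 0.231, edgeR) and -0.04 ± 0.039 for Ulk2 (adjusted p = 0.549, edgeR), and Atg101, which stabilizes Atg13, had a value of 0.08 ± 0.061 (adjusted p = 0.463, edgeR). The scaffold Rb1cc1, also known as FIP200, lay within 1 standard error of 0.

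In the nucleation complex, 4 of 6 genes had a positive log2 fold change and none was called. Ambra1, a scaffold of the Becn1 complex, was at 78.9, 79.6, 79.8, 79.1 and 76.3 CPM in young and at 83.9, 81.0, 80.2 and 83.8 CPM in old mice. The old mice were all above the young, by a small margin (log2 fold change 0.06 ± 0.036 SE, adjusted p = 0.288, edgeR). Uvrag, a subunit of the Becn1 complex that acts in vesicle maturation, had the highest value at 0.11 ± 0.053 (SE; unadjusted p = 0.0470, adjusted p = 0.188, edgeR), and 17.6% of its exon bases are shared with Gm45187 on the opposite strand. Becn1, the lipid kinase Pik3c3 and its targeting subunit Atg14 lay within 1 standard error of 0. Of the exon bases of Becn1, 43.9% are shared with Cntd1 on the opposite strand, the largest overlap among the 41 genes.

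Membrane supply was represented by Atg9a, the lipid transfer proteins Atg2a and Atg2b and the phosphoinositide-binding proteins Wipi1, Wipi2 and Wdr45. Atg9a, the transmembrane protein of the vesicles that seed the autophagosome, was at 72.7, 72.3, 72.8, 76.6 and 67.6 CPM in young and at 72.2, 67.3, 63.5 and 66.4 CPM in old mice. The ages overlapped through young replicate 5 and old replicate 1, and the gene was not called (log2 fold change -0.10 ± 0.046 SE, unadjusted p = 0.0369, adjusted p = 0.163, edgeR). Of its exon bases, 32.6% are shared with Ankzf1 on the opposite and Gm29253 on the same strand. For Atg2a the difference was -0.06 ± 0.041 log2 units (SE; edgeR, adjusted p = 0.414), and for Wdr45, the gene mutated in a human neurodegeneration with brain iron accumulation, it was 0.12 ± 0.060 (SE; edgeR, adjusted p = 0.241). For Wdr45, 24.7% of the exon bases are shared with Gm45208 on the same strand. Atg2b, Wipi1 and Wipi2 lay within 1 standard error of 0.

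The ubiquitin-like conjugation genes were also not called. Atg12, the protein conjugated to Atg5, was the most abundant of them by TPM and was at 53.5, 47.5, 47.6, 51.0 and 46.9 CPM in young and at 47.7, 45.7, 50.0 and 48.4 CPM in old mice. These ranges overlap (log2 fold change -0.04 ± 0.050 SE, adjusted p = 0.662, edgeR). Atg5 had a log2 fold change of -0.13 ± 0.080 (SE; adjusted p = 0.351, edgeR), which ran from -0.19 without old replicate 3 to -0.057 without old replicate 1, with a coefficient of variation of 12.1% among the old mice, the highest of the 41 genes there. The enzymes Atg7, Atg3 and Atg10 and the membrane-targeting subunit Atg16l1 lay within 1 standard error of 0.

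The Atg4 proteases, which trim Atg8 proteins before conjugation and release them afterwards, were the least abundant group, at 5.74 TPM for Atg4a to 28.5 TPM for Atg4c. Atg4c was at 38.9, 38.9, 36.6, 39.9 and 37.2 CPM in young and at 38.4, 42.7, 37.6 and 36.2 CPM in old mice. Young and old mice were intermixed, with the highest and the lowest value both in old animals (log2 fold change 0.01 ± 0.053 SE, adjusted p = 0.925, edgeR). The other proteases, Atg4a, Atg4b and Atg4d, also lay within 1 standard error of 0. For Atg4d, 19.3% of the exon bases are shared with Kri1 on the opposite strand. Atg4a has an annotated pseudogene named after it, as has Bnip3l, so reads that fit both copies were not counted for these genes. How many such reads there were was not measured, and pseudogenes under other names were not searched for.

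The region upstream of the start site was examined because transcription factors of the TFEB family bind the E-box CACGTG in promoters of many autophagy and lysosome genes. Sequences of 250 bases before to 50 bases after the start were available from RefSeq (GRCm38.p6) for 34 of the 41 genes and for 12580 of the genes tested, and motifs were searched on both strands. CACGTG was present for 5 of the 34 genes (14.7%: Atg3, Atg5, Atg7, Atg14 and Bnip3) and for 11.0% of the tested genes. The longer form TCACGTGA, which contains the E-box, was present for Atg3 alone (2.94%, against 1.92%). The GC box CCGCCC was present for 24 (70.6%, against 64.6%) and the antioxidant response core TGACNNNGC for 4 (11.8%, against 16.6%). Of the called genes, Pink1 was among the 34 and Map1lc3a was not. The part upstream of the first exon is shown 5′ to 3′ for Atg5, Bnip3 and Pink1. Atg5 (conjugation) and Bnip3 (mitophagy) carry the E-box and were not called. Pink1 (mitophagy) rose, and its window holds 2 matches to the GC box and no CACGTG. The windows of Atg5 and Bnip3 hold the GC box as well. A link between these motifs and the age differences was not tested. Capitals mark CACGTG in the first and second sequence, where the GC box is left unmarked, and CCGCCC in the last. Atg5 is read from chr10:44268089-44268338 on the plus strand, Bnip3 from chr7:138909520-138909756 on the minus strand and Pink1 from chr4:138326308-138326546 on the minus strand.
Atg5: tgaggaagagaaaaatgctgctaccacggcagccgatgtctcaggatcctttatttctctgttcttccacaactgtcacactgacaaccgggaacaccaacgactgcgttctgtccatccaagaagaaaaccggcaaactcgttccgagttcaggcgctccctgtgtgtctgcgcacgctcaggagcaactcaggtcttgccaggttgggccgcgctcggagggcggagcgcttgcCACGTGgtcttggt
Bnip3: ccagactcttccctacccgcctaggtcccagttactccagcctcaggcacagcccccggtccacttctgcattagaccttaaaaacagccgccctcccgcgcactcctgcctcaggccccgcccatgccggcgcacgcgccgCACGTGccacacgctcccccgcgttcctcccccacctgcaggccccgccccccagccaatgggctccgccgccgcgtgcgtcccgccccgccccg
Pink1: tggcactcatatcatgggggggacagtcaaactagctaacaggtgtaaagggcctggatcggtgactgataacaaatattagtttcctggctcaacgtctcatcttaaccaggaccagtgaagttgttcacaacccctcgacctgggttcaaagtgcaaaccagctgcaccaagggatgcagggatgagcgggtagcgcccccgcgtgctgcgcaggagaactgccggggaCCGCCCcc

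Other genes of the pathway were listed separately to place these values, 105 in all, of which 103 were tested. The list was chosen with earlier results of these data known, so its shares do not test a change of the pathway. Of the 103 tested genes, 11 were higher in old brain (10.7%, beside 6.09% of all genes tested) and 0 were lower by edgeR (beside 4.89%). At an unadjusted p under 0.05, 20 were higher and 9 lower, and DESeq2 and limma-voom each called 1 gene lower, the endoplasmic reticulum receptor Rtn3. The median log2 fold change of the 103 genes was 0.02. The count of higher genes was 7 without young replicate 5 and 7 without old replicate 4. Of the 11 genes, 6 were called, at the same adjusted p threshold of 0.05, with every other test, size factor, filter and unit of counts that was run, with the replicate block and with each mouse left out (Fnip1, Mitf, Foxo1, Dapk1, Vps11 and Trim30a), and 5 were not (Rragc, Mtmr3, Bcl2l1, Plekhm1 and Lgals3).

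Among the regulators of the growth kinase complex mTORC1, which inhibits autophagy, and of the energy sensor AMPK, 2 of 30 genes rose. Of all genes tested 6.09% were higher, a share that stands beside each of the lists below as well. In either direction, 10 of the 30 had an unadjusted p under 0.05, and log2 fold changes ran from -0.22 to 0.23. Fnip1, a partner of folliculin at the lysosome, was higher by 0.23 ± 0.039 log2 units (SE; edgeR, adjusted p = 0.00101), and the small GTPase Rragc by 0.14 ± 0.040 (adjusted p = 0.0291, edgeR). Of the 6 transcription factors, Mitf, of the TFEB family, was higher by 0.35 ± 0.081 (adjusted p = 0.0106, edgeR) and Foxo1 by 0.25 ± 0.057 (adjusted p = 0.00989, edgeR). Foxo1 is overlapped in 7.8% of its exon bases by Gm20402 on the opposite strand.

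Of 26 further core and accessory genes, 3 rose: the death-associated kinase Dapk1, which phosphorylates Becn1 (0.29 ± 0.048, adjusted p = 0.000979, edgeR), Bcl2l1, which encodes the Becn1 inhibitor Bcl-xL (0.14 ± 0.041, adjusted p = 0.0310, edgeR), and the phosphatase Mtmr3 (0.13 ± 0.036, adjusted p = 0.0228, edgeR). Members that promote and members that restrain autophagy are thus both among the rises. In the transport and fusion list, Vps11, a subunit of the tethering complexes of the endosome and lysosome, was higher by 0.19 ± 0.041 log2 units (SE; edgeR, adjusted p = 0.00568) and the adaptor Plekhm1 by 0.18 ± 0.054 (SE; edgeR, adjusted p = 0.0445).

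The list of selective autophagy, mainly of mitochondria and the endoplasmic reticulum, held 23 tested genes with a median log2 fold change of -0.0040. In this list 2 genes rose, Lgals3 and Trim30a, and no other gene was called. Lgals3, a galectin that binds damaged lysosomes and is made by activated microglia and macrophages, was higher by 1.99 ± 0.44 log2 units (SE; adjusted p = 0.0229, edgeR). It was at 0.627, 1.16, 0.55, 3.24 and 1.24 CPM in young mice, the highest in replicate 4, and at 4.41, 5.78, 7.55 and 4.75 CPM in old mice. Without young replicate 4 the log2 fold change of Lgals3 was 2.64 (adjusted p = 5.89e-06, edgeR). Trim30a, an interferon-inducible member of the Trim family, was at 2.35 to 3.38 CPM in young and at 5.05 to 8.67 CPM in old mice and rose by 1.24 ± 0.16 log2 units (SE; adjusted p = 0.000139, edgeR).

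**Figure D5:**
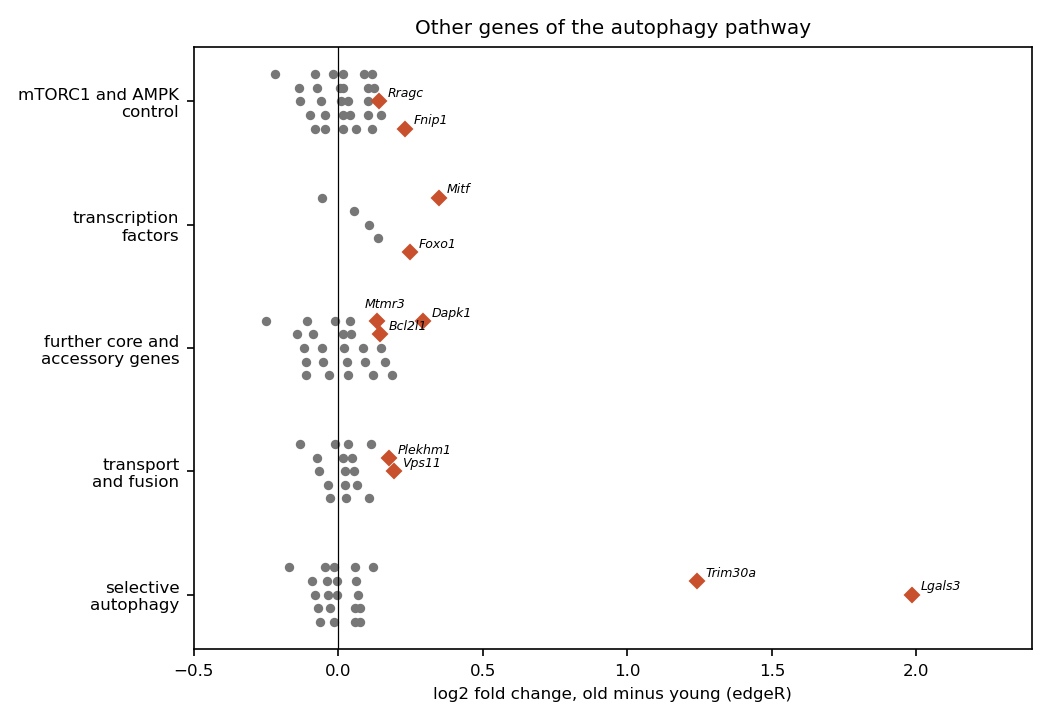
Log2 fold changes, old minus young, of 103 tested genes of the autophagy pathway outside the 41, by list, each point a gene (vertical offsets within a list carry no meaning). Orange diamonds are the 11 genes with an adjusted p under 0.05, from 0.13 for Mtmr3 to 1.99 for Lgals3, and all lie to the right of 0.

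Markers of brain cell types were measured beside these values, since in whole tissue fewer cells of a type and less RNA per cell cannot be told apart. Of 9 neuronal markers, Stmn2 (-0.27) and Tubb3 (-0.22) fell and 7 were not called. Log2 fold changes over the 9 ran from -0.27 to 0.32 with a median of -0.025, and 3 had an unadjusted p under 0.05. The summed CPM of the 9 was 5630 to 6065 in young and 5561 to 6073 in old mice. Of 8 microglial markers, 2 rose and 6 had an unadjusted p under 0.05, with log2 fold changes from 0.18 to 0.96 over the 8, and their summed CPM was 229.98 to 371 in young, with the highest value in replicate 4, and 365 to 385 in old mice. None of 7 astrocyte markers was called by edgeR, although 3 had an unadjusted p under 0.05 and log2 fold changes over the 7 ran from -0.13 to 1.07. Of 7 oligodendrocyte markers 2 rose and 1 fell, of 4 markers of their precursors 1 fell, and 2 rose among 5 endothelial and among 4 pericyte markers. None of 5 markers of choroid plexus and ependyma was called by edgeR (1 at an unadjusted p under 0.05). Of 5 blood markers 3 rose and all 5 had an unadjusted p under 0.05, with a summed CPM of 86.1 to 116 in young and 128 to 409 in old mice. The part of these differences in the values of Map1lc3a, Pink1, Lgals3 and Trim30a was not tested.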

How the data were processed

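Total RNA of whole brains was polyA-selected with ERCC spike-ins and sequenced. Per the study's methods, the authors trimmed the reads with Trimmomatic, aligned them to GRCm38 with STAR and used featureCounts to count the reads that mapped uniquely to exons. These counts were deposited as raw whole numbers. For the deposited TPM values the gene lengths are not given in the sources used here, and the deposited normalized counts are a signal for which the authors divided counts by a size factor (17994 genes). Strandedness is not given in the sources used here. Each table held 1 further column that matched no sample and was not used, and a further old animal of the study was not analysed here.

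Symbols and positions came from GENCODE M21, and 345 of 49315 gene IDs had no symbol. Genes were kept with filterByExpr (minimum count 10, minimum total count 15), normalized with TMM and tested with edgeR 4.0.16 in R 4.3.3 (quasi-likelihood with robust estimation, Benjamini-Hochberg adjustment). CPM used TMM library sizes, and log2 CPM a prior count of 2. The biological coefficient of variation was 6.71%. Between any pair of libraries of an age, counts differed by more than sampling noise (lowest chi-square over its degrees of freedom 4.04), and each library was taken as a replicate. The fits were tested on simulated data. Alternatives used DESeq2 1.42.0, limma 3.58.1, other size factors, filters, units and thresholds, a replicate block, and each mouse left out.

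The 41 genes and the lists of other pathway genes and markers were chosen with earlier results of these data known. Values per mouse are given for called genes, Sqstm1, Map1lc3b and the gene with the highest mean TPM of each role group, and other genes are given by group. Values of single genes outside this rule are for those at least 1 standard error from 0, chosen after the values were seen, as were the marker examples. Of the other pathway genes, up to 3 rises and 3 falls per list were named, and 1 gene of these lists is not reported here and was left out of their counts; Rtn3 and 3 further genes called lower under an alternative were named after their values were seen.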

Additional observations from a re-analysis of the deposited data

Results flagged for a closer look

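Over 43 results, named genes and paralogue ratios together, the highest and the lowest mouse of each age were compared with the rest of their group. In 4 of 86 groups a mouse's gap to its nearest neighbour, as a part of the group's range, exceeded Dixon's 95% limit. Chance gives about 4.3. Map1lc3a in old replicate 4 stood above the other old mice, at 6.86 against 6.79 to 6.80 log2 CPM (gap over range 0.902), and its log2 fold change without this mouse was -0.25. Ambra1 in young replicate 5 was low, at 6.26 against 6.30 to 6.32 log2 CPM (0.741). Foxo1 in young replicate 3 was low, at 5.04 against 5.16 to 5.20 log2 CPM (0.742), and so was Plekhm1 in young replicate 4, at 5.13 against 5.19 to 5.21 log2 CPM (0.75).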

How the results depend on the processing

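Pink1 and Map1lc3a were called, in the same direction, under every alternative on a count scale: other size factors, DESeq2, limma-voom, other filters, the authors' normalized counts, the replicate block, the fit without robust dispersion (chosen after seeing the data) and each mouse left out. Over these, the highest adjusted p was 0.00141 for Pink1 and 0.00847 for Map1lc3a. On the log2(TPM + 1) and log2(TPM + 0.1) scales limma called 30 and 27 of 28797 genes in all, and among the autophagy and other pathway genes 0 were called higher and 0 lower. These scales move the median of all genes by -0.11 and -0.15, and relative to that shift Pink1 was at 0.23 and 0.27 and Map1lc3a at -0.29 and -0.25. The median of the 41 genes moved to -0.042 and -0.0069 on these scales. Among the autophagy genes given with a log2 fold change, the sign turned for Atg13 (-0.016 with log2(TPM + 1)), Atg4c (-0.039 and -0.0045 with the TPM scales) and Gabarapl1 (-0.043 and -0.0045), all uncalled. Leaving out a mouse gave ranges of -0.037 to 0.041 for Atg4c, -0.056 to 0.010 for Map1lc3b, -0.00090 to 0.031 for Gabarapl1, -0.025 to 0.11 for the ratio of Atg4c to Atg4b and -0.0035 to 0.070 for that of Bnip3l to Bnip3. Of the genes given only as within 1 standard error of 0, Wipi2, Atg3, Atg16l1, Atg4d, Tax1bp1 and Bnip3 also turned on a TPM scale, and Rb1cc1, Pik3c3, Atg2b, Atg3, Atg7, Atg16l1 and Atg4d without a mouse. Atg2b turned with limma-voom and the replicate block too, Atg7 with the block, and Atg16l1 with upper quartile size factors and with no filter. The cause of these sign changes was not tested.

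Of the other pathway genes, 5 were higher at an adjusted p under 0.01, and 7 to 12 with a mouse left out (7 without young replicate 5 and without old replicate 4). The count of genes called lower was 1 with DESeq2 and with limma-voom, 3 without a filter on low counts (Trp53inp2, Hdac6 and Tecpr1), 4 at an adjusted p under 0.1 and 0 to 1 with a mouse left out (Hdac6 without young replicate 4, Tecpr1 without old replicate 1). With the replicate block 8 were higher. Calls were lost by Plekhm1 under most alternatives, and by Rragc, Mtmr3, Bcl2l1 and Lgals3 under some, among them the fits without single mice. Young and old mice share replicate numbers, but same-numbered mice did not deviate together (correlations of 0.17, -0.12, 0.088 and -0.024), so the numbers were not taken as pairs. The replicate block called 1828 genes in all, against 2031 without it, with 1 autophagy gene higher and 1 lower.

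Among the 41 genes the uncalled log2 fold changes reached -0.13 for Atg5 and 0.12 for Wdr45, at standard errors of 0.080 and 0.060. No mRNA value speaks for protein, lipidation or autophagic flux.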
